A study of Mus musculus with 12 samples.

Results

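The sodium-potassium ATPase was followed here through 7 of its subunit and regulator genes: the β subunit genes Atp1b1, Atp1b2, Atp1b3 and Atp1b4, and the FXYD genes Fxyd1, Fxyd5 and Fxyd6. They were chosen by symbol as a named family, with earlier results of these data known, from the 51826 entries of the count table, and each of the 7 had 1 entry. Transcripts were counted in atria and ventricles of 6 hearts, which gave 12 libraries of between 116127966 and 160676189 counts. CUG960 +dox mice (V119, V120 and V123) were homozygous for TREDT960I, a tetracycline-responsive transgene with 960 interrupted CUG repeats in human DMPK sequence, and hemizygous for MHCrtTA, which places the reverse tetracycline transactivator under the α myosin heavy chain promoter of cardiomyocytes. Control mice (V327, V333 and V334) carried MHCrtTA(hemi) alone. All 6 mice were FvB females of 10 weeks, and all ate dox from postnatal day 1 (PN1), so the transactivator and dox were common to both genotypes. The controls were bred separately, from MHCrtTA hemizygous and wild type FvB parents, and breeding and transgene cannot be told apart.

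The sodium pump moves sodium out of the cell and potassium in, at the cost of ATP. Its α subunit carries out transport, its β subunit is a glycoprotein needed for folding and delivery to the membrane, and small FXYD proteins tune the assembled pump. In cardiomyocytes the sodium gradient that the pump keeps up drives calcium out through the sodium-calcium exchanger, and the pump is the target of digitalis drugs. Phospholemman, the product of Fxyd1, restrains the cardiac pump until it is phosphorylated. Atp1b4 stands apart from the other β genes, since its protein in placental mammals is found in the nuclear envelope of muscle and is not known as a working part of the pump.

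Positions are those of the GENCODE M21 annotation of GRCm38. Atp1b1 lies on chromosome 1 from 164437109 to 164458355 (minus strand), Atp1b2 on chromosome 11 from 69599736 to 69605942 (minus strand), Atp1b3 on chromosome 9 from 96332655 to 96364442 (minus strand) and Atp1b4 on chromosome X from 38316184 to 38336769 (plus strand). Fxyd5 and Fxyd1 are near neighbours on chromosome 7, from 31032722 to 31042481 and from 31051678 to 31057199 (both minus strand), with Fxyd7 between them, 31 bases from Fxyd5 and 210 bases from Fxyd1. Fxyd6 lies on chromosome 9 from 45370185 to 45396159 (plus strand), 3509 bases from Fxyd2. The genes Atp1b1 and Nme7, on opposite strands, overlap over 617 bases, and Atp1b3 has a copy, Gm1848, with 96.4% identity over 805 aligned bases. Whether the strand was used in counting is not given in the sources used here, so reads of the Atp1b1 overlap cannot be assigned with certainty. Gm1848 had between 0 and 11 counts per library, against between 7112 and 13493 for Atp1b3.

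Upstream sequences are shown for the members that passed the threshold between genotypes in a chamber, Atp1b4 in ventricles and Fxyd6 in atria. Atp1b4 entered its test through the CUG960 libraries alone, so its pass was partly built in and is given as a description. Each runs 5′ to 3′ over the 250 bases before the RefSeq transcript start in GRCm38.p6, on the plus strand, at chrX:38315872-38316121 and chr9:45369935-45370184. RefSeq windows were matched for 6 of the 7 genes, all but Atp1b2. Capitals mark matches on either strand to CANNTG (an E-box) or CCAAT.
Atp1b4: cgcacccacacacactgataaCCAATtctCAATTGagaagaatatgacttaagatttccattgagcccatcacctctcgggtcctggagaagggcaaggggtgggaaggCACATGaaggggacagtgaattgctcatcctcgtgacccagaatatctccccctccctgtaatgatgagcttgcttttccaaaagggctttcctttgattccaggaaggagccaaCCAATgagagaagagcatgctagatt
Fxyd6: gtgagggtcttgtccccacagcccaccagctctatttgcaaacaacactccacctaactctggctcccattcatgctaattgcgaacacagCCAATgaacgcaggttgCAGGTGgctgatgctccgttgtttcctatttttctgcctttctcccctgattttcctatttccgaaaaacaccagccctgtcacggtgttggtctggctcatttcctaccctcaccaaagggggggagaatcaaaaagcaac
Both windows hold CANNTG and CCAAT, with 2 matches of each in Atp1b4 and 1 of each in Fxyd6. These letters are common: 66.2% of all 32841 RefSeq windows of this length hold CANNTG and 33.9% hold CCAAT. No match was found in either window for CATTCC (in 12.6% of all windows), TATAAA (12.4%), CCGCCC (32.7%), the MEF2 motif (2.92%) or the CArG box (1.47%), on either strand. The Atp1b4 window has a GC content of 48.4% and the Fxyd6 window of 50.4%, near the median of 52.4% over all windows. A match describes the letters of the window and is not evidence of binding.

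The chambers matched their labels. Atrial cardiomyocyte markers, led by Nppa (atrial natriuretic peptide), summed to between 22392 and 29599 CPM (counts relative to library size, scaled by TMM) in atria and to between 132 and 362 in ventricles. Ventricular markers summed to between 1114 and 1487 CPM in atria, nearly all of it Myh7 (β myosin heavy chain), and to between 15191 and 19171 in ventricles, led by Myl2 (the ventricular regulatory myosin light chain). Ventricles of CUG960 mouse V123 had more of some atrial transcripts than the other CUG960 ventricles: 55.9 CPM of Myl7 (the atrial light chain) against 0.192 and 0.304, and 18.5 CPM of Sln (sarcolipin) against 0.213 and 0.341. Control ventricles had 4.98 to 19.3 CPM of Myl7 and 2.90 to 7.84 of Sln.

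Levels of the members were set against each other per kilobase of merged exon or, where stated, of longest transcript, and marker genes are given in plain CPM. Atp1b1 made up most β transcripts per length in every library: 72.1% ± 0.630 (SD, n = 3) in control atria and 73.7% ± 0.268 in control ventricles. Atp1b3 followed with 22.9% ± 0.469 and 21.8% ± 0.201, then Atp1b2 with 5.0% ± 0.187 and 4.49% ± 0.432. Atp1b4 gave 0.0192% ± 0.0151 and 0.00348% ± 0.00178. This order of the β genes held in each of the 12 libraries, and the ranges of neighbours did not meet in any group. Among FXYD transcripts, Fxyd1 had 90.9% ± 0.544 in control atria and 92.5% ± 0.971 in control ventricles. Fxyd6 (phosphohippolin) had 4.16% ± 0.139 and 4.87% ± 0.819, and Fxyd5 (dysadherin, known for its effect on cell adhesion) 3.37% ± 0.688 and 2.38% ± 0.467. Fxyd6 lay above Fxyd5 in each of the 12 libraries, though in control atria the ranges of Fxyd6 (4.07% to 4.32%) and Fxyd5 (2.71% to 4.08%) met. The closest values there were those of V327, at 4.10% against 4.08%. These shares move with the length used: with the longest transcript of each gene, the shares in control atria and ventricles were 95.4% and 96.1% for Fxyd1, 2.32% and 2.69% for Fxyd6, and 1.51% and 1.06% for Fxyd5.

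Across both classes, control atria had 109 ± 3.90 CPM per kilobase of Fxyd1 and 100 ± 1.73 of Atp1b1, ahead of 31.9 ± 0.519 of Atp1b3. Atp1b2 had 6.97 ± 0.195, Fxyd6 4.99 ± 0.207, Fxyd5 4.06 ± 0.992 and Atp1b4 0.0268 ± 0.0209. In CUG960 atria Fxyd1 had 107 ± 10.1 and Atp1b1 115 ± 6.48. The place of Fxyd1 relative to Atp1b1 there rests on gene length, since per kilobase of longest transcript Fxyd1 stood above Atp1b1 in control (356 ± 12.8 against 120 ± 2.07) and in CUG960 atria (349 ± 33.0 against 138 ± 7.74): the merged exons of Fxyd1 cover 2186 bases over 17 annotated transcripts, and its longest transcript has 668. In control ventricles Fxyd6 (6.55 ± 0.241) stood above Atp1b2 (5.64 ± 0.449). In CUG960 atria Atp1b2 reached 10.4 ± 0.892 CPM per kilobase and Fxyd6 7.51 ± 0.761. The order of Atp1b2 and Fxyd6 in atria rests on gene length too: per kilobase of longest transcript Fxyd6 stood above Atp1b2, at 8.67 ± 0.361 against 7.59 ± 0.213 CPM in control atria and at 13.1 ± 1.32 against 11.3 ± 0.972 in CUG960 atria.

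**Figure D1:**
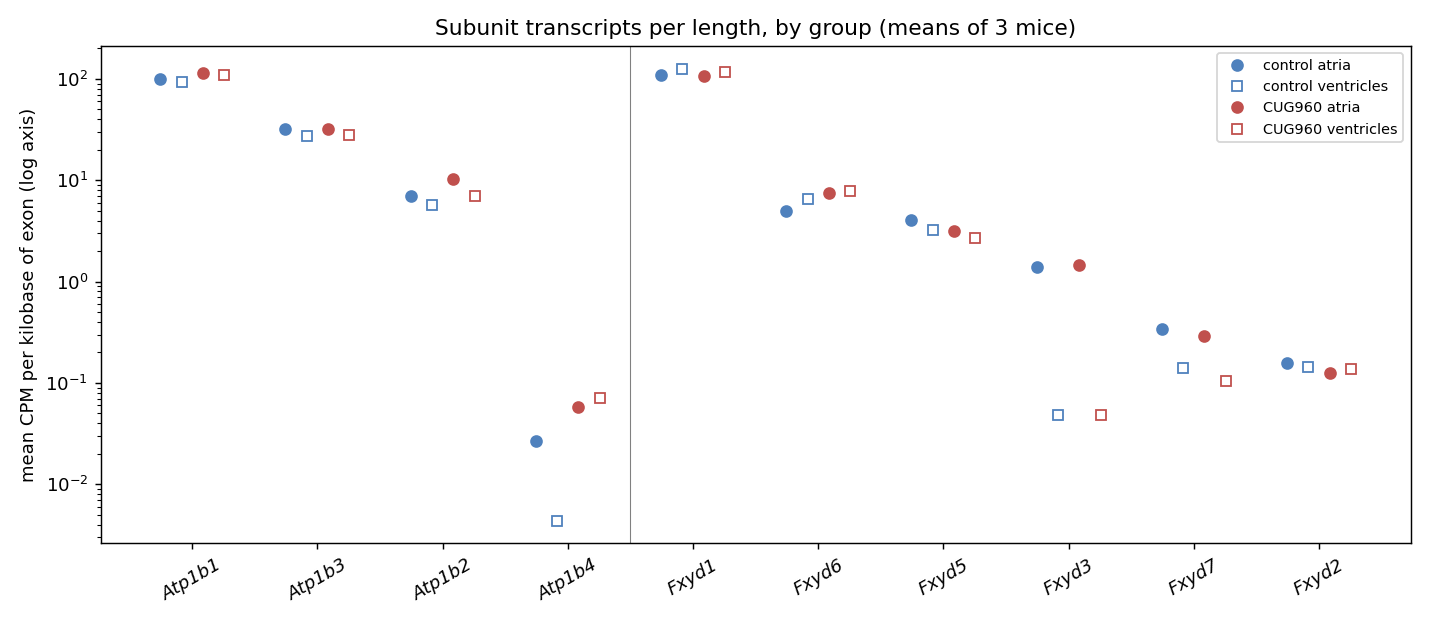
Mean CPM per kilobase of merged exon (log axis) of β and FXYD genes in the 4 groups, each the mean of 3 mice; a vertical line parts the classes. Atp1b1 and Fxyd1 lead their classes in all 4 groups, and Atp1b4 lies lowest among the β genes, at 0.00437 in control ventricles.

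The study compared CUG960 with control hearts to find which transcripts respond to the repeat RNA. A gene was called at an adjusted P under 0.05 (edgeR quasi-likelihood test, Benjamini-Hochberg over all genes tested) with a fold change of at least 1.5. Called differences were few: Fxyd6 rose in CUG960 atria and Atp1b4 rose in CUG960 ventricles. Atp1b4 entered the ventricular test through its CUG960 libraries alone. In all, 1 of 7 members passed in atria, where 5.49% of all 17650 genes tested were called, and 1 of 7 in ventricles, where 4.75% of 16909 were called. In each chamber 5 members had a higher level in CUG960 hearts and 2 a lower one. Of all genes, 8583 of 17650 had a higher estimate in atria and 8221 of 16909 in ventricles. The median log2 fold change of the 7 was 0.20 in atria and 0.24 in ventricles, against −0.01 over all genes in either chamber. The ventricular count and median include Atp1b4, whose higher level was partly built in, and are descriptions only.

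Fxyd6 had 21.2, 20.7 and 19.5 CPM in atria of control mice V327, V333 and V334, and 34.2, 30.4 and 28.0 CPM in atria of CUG960 mice V119, V120 and V123. The groups stood apart, and the log2 fold change was 0.59 ± 0.083 (SE), a fold of 1.51 (95% interval 1.32 to 1.72, adjusted P = 0.0036). The fold sits on the limit: it fell below 1.5 when CUG960 mouse V119 was left out (log2 0.51, adjusted P = 0.011) or control mouse V334 (log2 0.56, adjusted P = 0.014). In ventricles Fxyd6 had 25.8, 27.7 and 27.2 CPM in controls and 31.4, 34.2 and 30.3 in CUG960 mice. All 3 CUG960 ventricles again lay above all 3 controls, but the log2 difference of 0.25 ± 0.080 did not pass the test (adjusted P = 0.084 with edgeR, and 0.049 with DESeq2).

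Atp1b2, which is also known as an adhesion molecule of glia, stood just under the fold limit in atria. It had 27.6, 29.1 and 28.7 CPM in control atria and 43.5, 38.2 and 45.2 in CUG960 atria. The log2 difference was 0.57 ± 0.075 (adjusted P = 0.0027), a fold of 1.49 (1.32 to 1.67). Its adjusted P stayed under 0.05 with each mouse left out in turn (0.0037 to 0.016). In ventricles Atp1b2 had 22.0, 21.9 and 25.1 CPM in controls and 32.0, 27.0 and 26.1 in CUG960 mice, again without overlap. There the log2 difference was 0.30 ± 0.10 (adjusted P = 0.0997). The adjusted P was 0.046 with total counts in place of TMM (log2 0.41, with a median of 0.098 over all genes). It was 0.048 with all 12 libraries in a single fit.

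Atp1b1, the main β subunit of the cardiac pump, had a higher mean in CUG960 mice in both chambers. It had 315, 305 and 309 CPM in control atria and 336, 355 and 376 in CUG960 atria (log2 difference 0.20 ± 0.061, adjusted P = 0.066). In ventricles it had 278, 298 and 281 CPM in controls and 338, 323 and 347 in CUG960 mice (0.24 ± 0.073, adjusted P = 0.076). Neither difference passed the edgeR test, although the groups did not overlap in either chamber; DESeq2 gave adjusted P values of 0.029 and 0.027.

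Atp1b4 was barely detected and its evidence is a matter of counts. Control ventricles had 3, 2 and 1 counts (V327, V333 and V334), while CUG960 ventricles had 22, 65 and 33 (V119, V120 and V123). Every CUG960 ventricle was above every control, with 120 counts in all against 6. The ratio of pooled counts, scaled for depth, was 16.0 (exact 95% interval 7.16 to 44.6, for counting error only). Since only the CUG960 libraries brought the gene over the count filter in ventricles, a difference was built into its entry in the test, and the values of that test are given as a description. In the edgeR fit the log2 difference was 3.94 ± 0.64 (adjusted P = 0.0058), and ran from 3.43 to 4.32 with each mouse left out (4.01 without V123). With no count filter the adjusted P was 7.1e-05. Even in CUG960 ventricles the level was 0.295 ± 0.162 CPM.

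In atria Atp1b4 had 17, 35 and 4 counts in controls and 18, 71 and 21 in CUG960 mice. The atrial groups overlapped, and the log2 difference of 1.11 ± 0.70 did not pass (adjusted P = 0.33). With each mouse left out it ran from 0.30 to 1.84 (adjusted P from 0.21 to 0.83). The pooled ratio was 2.19 (counting interval 1.57 to 3.07). Mouse V120 had the highest count of the CUG960 mice in both chambers, and V334 the lowest of the controls.

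Atp1b3, Fxyd1 and Fxyd5 did not pass in either chamber. For Atp1b3 the groups were close, with 76.2 ± 1.24 CPM in control and 76.6 ± 1.70 in CUG960 atria, and 65.6 ± 2.46 and 67.0 ± 0.500 in ventricles (n = 3 each). Its log2 differences had 95% intervals of −0.11 to 0.13 in atria and −0.12 to 0.18 in ventricles, which leave out a fold change of 1.5. For Fxyd1 the intervals were −0.21 to 0.15 in atria and −0.44 to 0.18 in ventricles. Fxyd1 ranged from 228 to 315 CPM in control ventricles and from 218 to 293 in CUG960 ventricles. Fxyd5 had lower means in CUG960 hearts (13.3 ± 2.57 against 17.0 ± 4.16 CPM in atria and 11.4 ± 1.67 against 13.6 ± 2.98 in ventricles), with overlapping groups and adjusted P values of 0.25 and 0.37.

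Without the fold limit, 2 of 7 members passed in atria (14.6% of all genes) and 1 of 7 in ventricles (9.94%). Groups did not overlap for 3 of 7 members in atria, Atp1b1, Atp1b2 and Fxyd6, where 35.7% of all genes had groups apart. In ventricles the same was seen for 4 of 7, these genes and Atp1b4, against 31.1% of all genes. Atp1b4, also the 1 member that passed in ventricles, entered there through its CUG960 libraries alone. Both ventricular counts were thus partly built in, and nothing is read from them. The atrial share is near that of all genes. In ventricles mitochondrial genes took 19.6% to 20.5% of counts in controls and 15.3% to 18.4% in CUG960 mice, with TMM factors of 0.82 to 0.86 and 0.89 to 0.91. With total counts in place of TMM, the ventricular log2 difference was 4.05 for Atp1b4, 0.34 for Atp1b1 (adjusted P = 0.013) and 0.36 for Fxyd6 (adjusted P = 0.026). When mitochondrial genes were also left out of the totals, the log2 difference was 3.98 for Atp1b4, 0.29 for Atp1b1 (adjusted P = 0.033) and 0.30 for Fxyd6 (adjusted P = 0.0515). These scalings move all genes alike: the ventricular median of all genes was −0.0094 with TMM, 0.098 with total counts and 0.042 without mitochondrial genes.

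**Figure D2:**
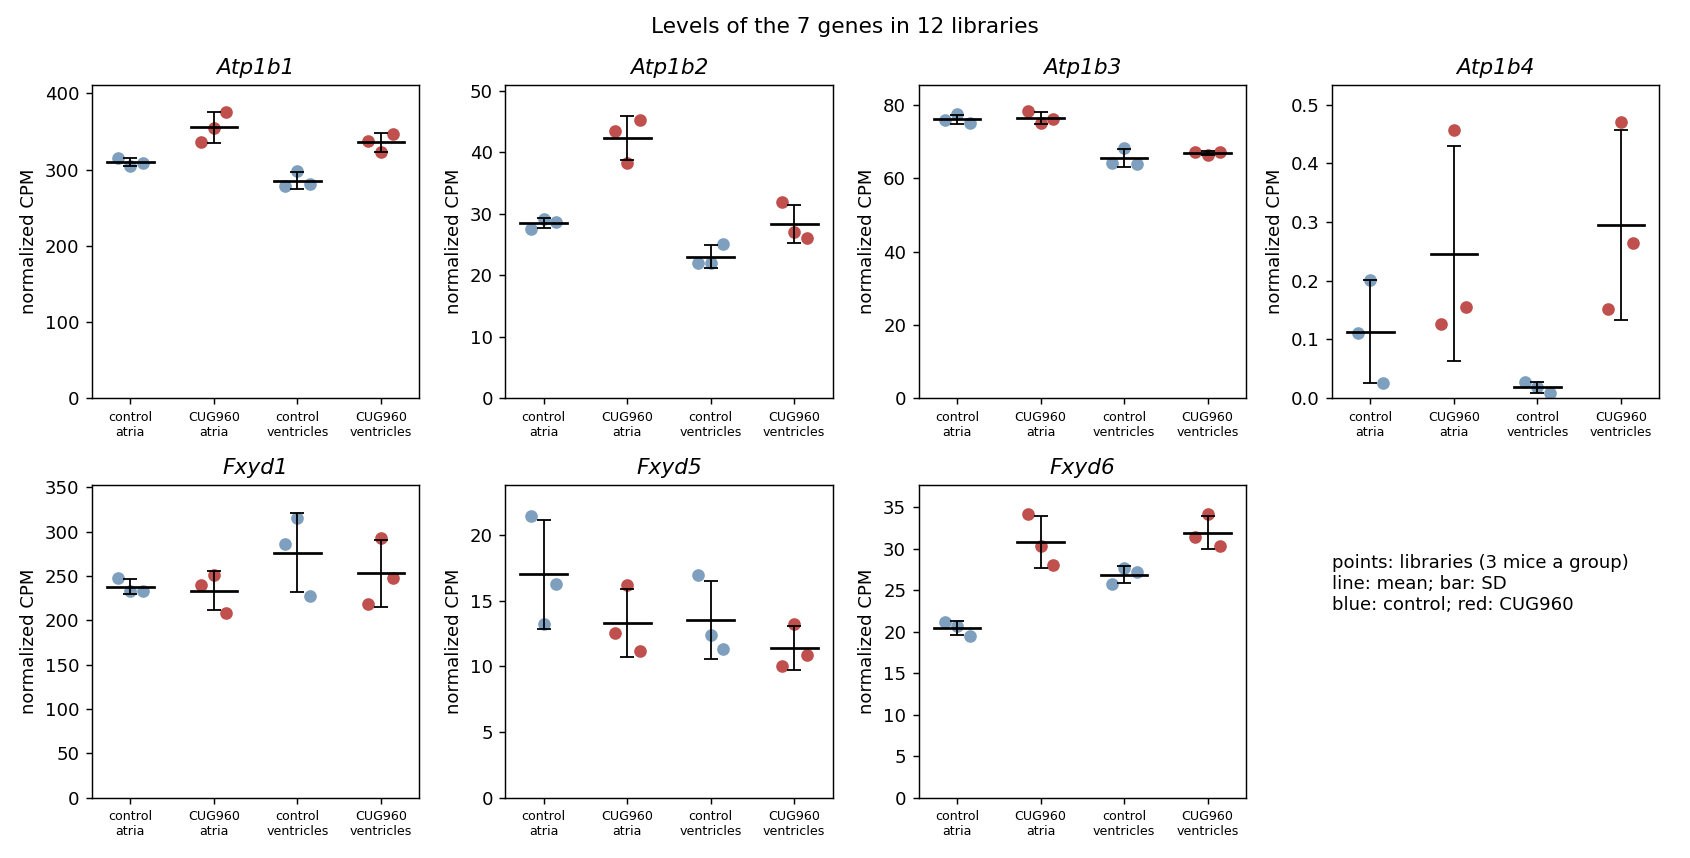
Normalized CPM of the 7 genes (one panel each, linear axis from 0) in the 12 libraries by group; points are libraries, lines are means and bars are SD of 3 mice. Fxyd6 in CUG960 atria lies between 28.0 and 34.2, above the controls at 19.5 to 21.2, and Atp1b4 in control ventricles lies at or below 0.0271.

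**Figure D3:**
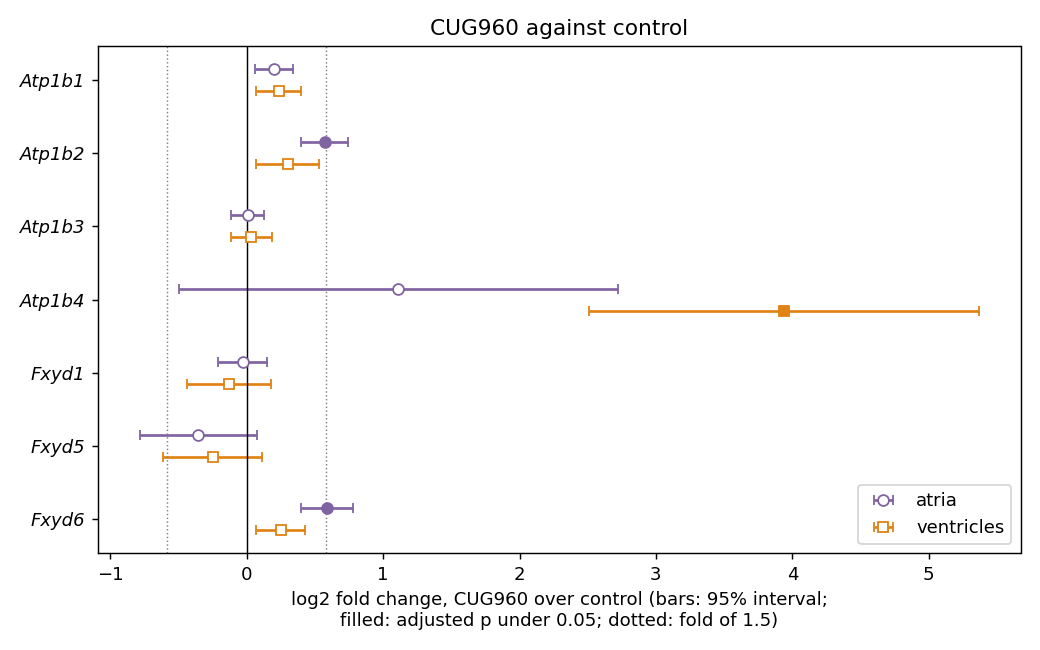
Log2 fold change of CUG960 over control for each gene in atria (circles) and ventricles (squares), with 95% intervals; filled symbols have an adjusted P under 0.05 and dotted lines mark a fold of 1.5. Atp1b4 in ventricles is at 3.94, and the other points lie between −0.35 and 1.11.

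Subunits were then set against each other within each library, which needs no scaling between libraries. With 3 mice a group, an exact permutation test (two-sided) has 0.1 as its smallest p, so the values below are descriptions with the spread of the mice. The share of Atp1b2 in β transcripts was 5.0% ± 0.187 in control atria and 6.56% ± 0.513 in CUG960 atria, with groups apart (exact p = 0.1). In ventricles it was 4.49% ± 0.432 and 4.82% ± 0.522, and the groups overlapped (exact p = 0.5). The share of Atp1b3 was lower in CUG960 mice in both chambers, at 20.3% ± 1.11 against 22.9% ± 0.469 in atria and at 19.5% ± 0.445 against 21.8% ± 0.201 in ventricles (exact p = 0.1 each, groups apart), while its own level barely differed. Atp1b1 had 73.1% ± 1.39 in CUG960 atria (control 72.1%, exact p = 0.3) and 75.7% ± 0.725 in CUG960 ventricles (control 73.7%, exact p = 0.1). Within the FXYD genes, Fxyd6 went from 4.16% ± 0.139 in control to 6.31% ± 0.505 in CUG960 atria (exact p = 0.1) and from 4.87% ± 0.819 to 6.21% ± 0.654 in ventricles (exact p = 0.2).

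**Figure D4:**
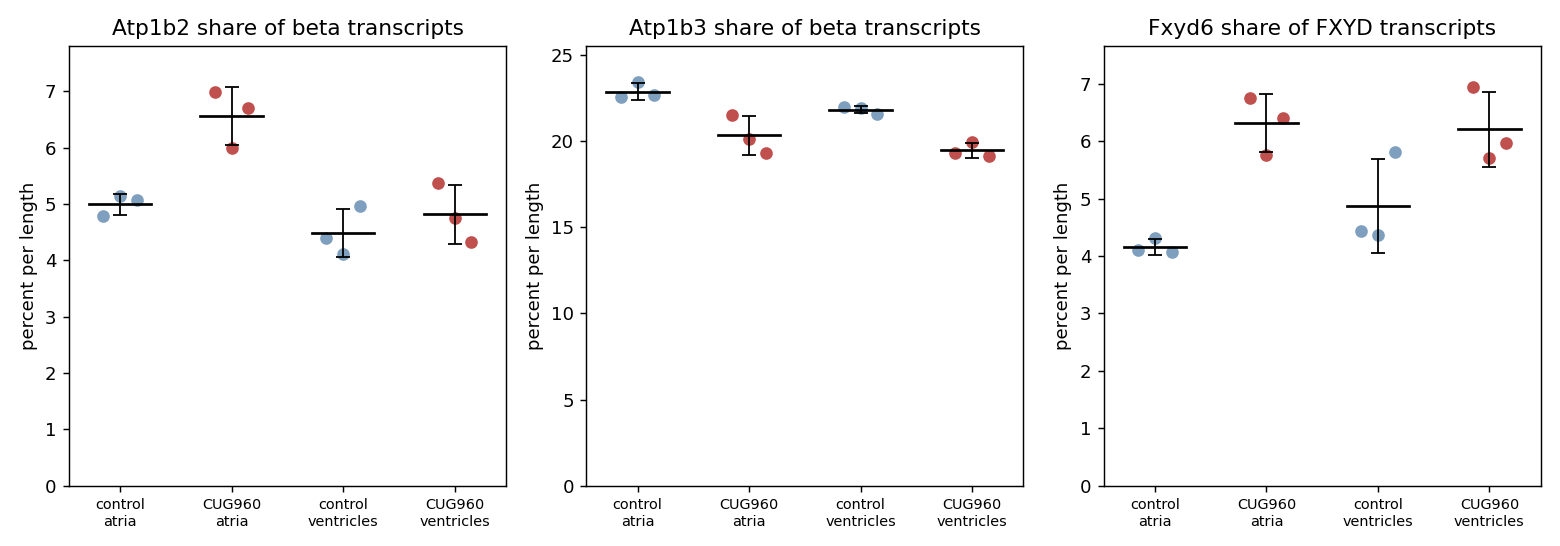
Shares of Atp1b2 and Atp1b3 in β transcripts and of Fxyd6 in FXYD transcripts (percent, per length) in the 12 libraries; points are libraries, lines means and bars SD of 3 mice, and all axes start at 0. The Atp1b2 share is 5.99% to 6.99% in CUG960 atria and 4.79% to 5.14% in control atria.

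Of 37 partner genes (other subunits, interacting and anchoring proteins, kinases and phosphatase regulators of the pump, sodium entry and exchange, and proton-potassium ATPases), 32 were tested in each chamber. In atria 2 were called higher and 0 lower (5.49% of all genes were called in either direction), and in ventricles 1 higher and 1 lower (4.75%). Their median log2 difference was 0.03 in atria and 0.14 in ventricles.

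Ppp1r1a, which encodes an inhibitor of protein phosphatase 1 that acts when protein kinase A has phosphorylated it, was called in both chambers. It had 6.91, 7.85 and 8.18 CPM in control atria and 17.2, 16.0 and 13.1 in CUG960 atria (log2 difference 1.01 ± 0.12, adjusted P = 0.0016). In ventricles it had 1.91, 1.94 and 2.05 CPM in controls and 5.98, 6.44 and 3.49 in CUG960 mice (1.43 ± 0.22, adjusted P = 0.0042). No CUG960 library fell within the control range in either chamber. Prkar2b, a regulatory subunit of protein kinase A, fell by 1.10 on the log2 scale in ventricles (adjusted P = 0.035), from 3.78, 1.73 and 2.35 CPM to 1.317, 1.036 and 1.303. In atria its difference was −0.39 (adjusted P = 0.083).

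Nkain1, named for its interaction with the pump, rose in atria from 0.583, 0.431 and 0.434 CPM to 0.964, 1.26 and 1.44 (log2 1.34 ± 0.22, adjusted P = 0.0074). In ventricles its difference was 0.47 (adjusted P = 0.066). The proton-potassium ATPase genes Atp4a, Atp4b and Atp12a were too low to test, at a summed 0.0441 CPM or less in any library.

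Markers of other cells moved between genotypes as well, and these are bulk tissues, in which fewer cells of a type and less RNA per cell cannot be told apart. All 8 endothelial markers had lower means in CUG960 hearts in both chambers, with a median log2 difference of −0.35 in each. Pecam1 (−0.71, adjusted P = 0.0043) and Tek (−0.62, adjusted P = 0.0083), both endothelial surface proteins, were called in atria. The summed endothelial level was 845 to 1058 CPM in control and 688 to 816 in CUG960 atria, and 818 to 967 against 665 to 707 in ventricles, with Vwf (von Willebrand factor) at the highest mean CPM in atria, Kdr (a VEGF receptor) in ventricles, and no marker at 0. Of the skeletal muscle markers, the fast troponin genes Tnnt3 (−2.05, adjusted P = 0.0100) and Tnni2 (−1.34, adjusted P = 0.027) were called lower in atria. The sum of the 8 genes was 643 to 857 CPM in control and 196 to 510 in CUG960 ventricles. Nearly all of this CPM was Acta1, which the heart itself expresses, while Myh1, Myh2, Myh4 and Myog were at 0.109 CPM or less in every library and up to 3 of the 8 markers were at 0. The fast myosin genes Myh2 and Myh4 were too low to test between genotypes and had higher means in CUG960 hearts (0.0674 against 0.0186 CPM for Myh2 in atria, and 0.0697 against 0.00915 in ventricles).

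Fibroblast markers, led by Dcn, had a median difference of −0.33 in atria and −0.0020 in ventricles, with sums of 2393 to 2774 against 1990 to 2358 CPM in atria. Medians were −0.18 and −0.10 for leukocyte markers (led by Csf1r in atria and C1qa in ventricles), −0.12 and 0.27 for mesothelial markers (led by Upk3b in atria and Wt1 in ventricles), and −0.0091 and −0.74 for Schwann cell and neuron markers (Cdh19 having the highest mean over the 12 libraries). The mesothelial sum in ventricles went the other way from its median, at 4.17 to 6.56 CPM in CUG960 mice against 7.20 to 8.23 in controls. Mean Wt1 there was 3.05 against 4.96 CPM. Kcna1, a potassium channel on the Schwann cell and neuron list, rose in atria (1.65, adjusted P = 0.0030) and had a difference of −0.85 in ventricles (adjusted P = 0.13, groups apart). In ventricles 0 of the 6 genes tested from that list had a higher estimate in CUG960 mice, and 1 of them, not Kcna1, was called lower. Cardiomyocyte genes moved too. In atria the connexin gene Gja5 (−1.51, adjusted P = 0.00031) and the transcription factor gene Hey2 (−0.67, adjusted P = 0.049) fell. Kcne1, a potassium channel subunit, rose there at low levels, from 0.0939 ± 0.0262 to 0.259 ± 0.0998 CPM (1.46, adjusted P = 0.042). Nppa was lower in CUG960 atria at a fold under the limit (−0.42, adjusted P = 0.0083, groups apart), and the summed atrial cardiomyocyte markers were 27000 to 29599 CPM in control and 22392 to 24499 in CUG960 atria. The list did not fall as a whole: 4 of its 8 genes had a higher estimate in CUG960 atria, and its median log2 difference was 0.012. In ventricles Kcne1 (1.57, adjusted P = 0.0016) and Nppa (1.301, adjusted P = 0.031) rose and Bmp10, an atrial growth factor, fell (−4.06, adjusted P = 0.0016). Bmp10 was low in ventricles, at 2.86 ± 0.772 CPM in control and 0.173 ± 0.124 in CUG960 mice, against 1554 ± 492 in control atria. The part of atrial tissue in the ventricular libraries in the differences of Nppa and Bmp10 was not tested. The part of these markers in the differences of Fxyd6, Atp1b2 and Atp1b4 was not tested.

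The chambers were compared next within each genotype. Scaling matters here, since TMM factors were 1.12 to 1.19 in atria and 0.82 to 0.91 in ventricles, and mitochondrial genes took 10.9% to 12.2% of counts in atria and 15.3% to 20.5% in ventricles. Dividing by total counts instead of TMM moved the median log2 difference of all genes from 0.03 to 0.49 in control and from 0.0090 to 0.40 in CUG960 hearts. By edgeR none of the 6 members tested in control hearts (Atp1b4 fell under the count filter) and none of the 7 in CUG960 hearts were called, where 34.9% and 33.6% of all genes were. At an unadjusted P under 0.05 there were 3 (61.1% of all genes) and 2 (59.5%), and DESeq2 called 0 in each, where it called 34.3% and 32.6% of all genes.

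Without the fold limit, 3 of 6 members passed in control hearts (55.7% of all genes) and 2 of 7 in CUG960 hearts (54.2%). Groups did not overlap for 4 of 6 (64.6% of all genes) and 2 of 7 (62.5%). In control hearts both shares are near those of all genes, and in CUG960 hearts both are lower. Atp1b2 was higher in atria, by 0.30 ± 0.077 in control (adjusted P = 0.010) and by 0.57 ± 0.10 in CUG960 hearts (adjusted P = 0.0012). Atp1b3 was higher in atria by 0.21 ± 0.058 (adjusted P = 0.015) and 0.18 ± 0.060 (adjusted P = 0.030, or 0.051 with the mouse as a block and 0.069 with no count filter). Both kept this direction with total counts, but that scaling raises all genes in atria and so was no test of it. When single mice were removed, the adjusted P of Atp1b2 ran from 0.015 to 0.084 in control hearts (under 0.05 in 1 of 3 fits) and from 0.0034 to 0.013 in CUG960 hearts, and that of Atp1b3 from 0.036 to 0.116 in control hearts (under 0.05 in 1 of 3) and from 0.086 to 0.152 in CUG960 hearts.

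Fxyd6 was lower in control atria than in control ventricles, by −0.40 ± 0.069 (adjusted P = 0.0014) with TMM, but the difference was 0.06 (adjusted P = 0.49) with total counts. In CUG960 hearts it was −0.06 ± 0.090 (adjusted P = 0.58) with TMM and 0.33 (adjusted P = 0.013) with total counts. Total counts raise the atrial values of all genes alike, so the changes with that scaling given here are not particular to these genes. Fxyd1 likewise had −0.22 and −0.13 with TMM and 0.24 and 0.26 with total counts, with no adjusted P under 0.05 over all mice. In control hearts its value ran from −0.33 (without V334, adjusted P = 0.022) to −0.10 (without V333, adjusted P = 0.54). The differences of Atp1b1, 0.11 and 0.07, did not pass (adjusted P = 0.16 and 0.46) with TMM, and were 0.57 and 0.46 (adjusted P = 5.35e-05 and 0.00041) with total counts. Fxyd5 had 0.32 and 0.21 (adjusted P = 0.20 and 0.27; 0.027 in control hearts with the mouse as a block), and 0.78 and 0.60 with total counts (adjusted P = 0.0069 and 0.0057). Among the partners, Fxyd3 (4.84 and 4.88) and Fxyd7 (1.25 and 1.45) were called higher in atria in both genotypes.

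**Figure D5:**
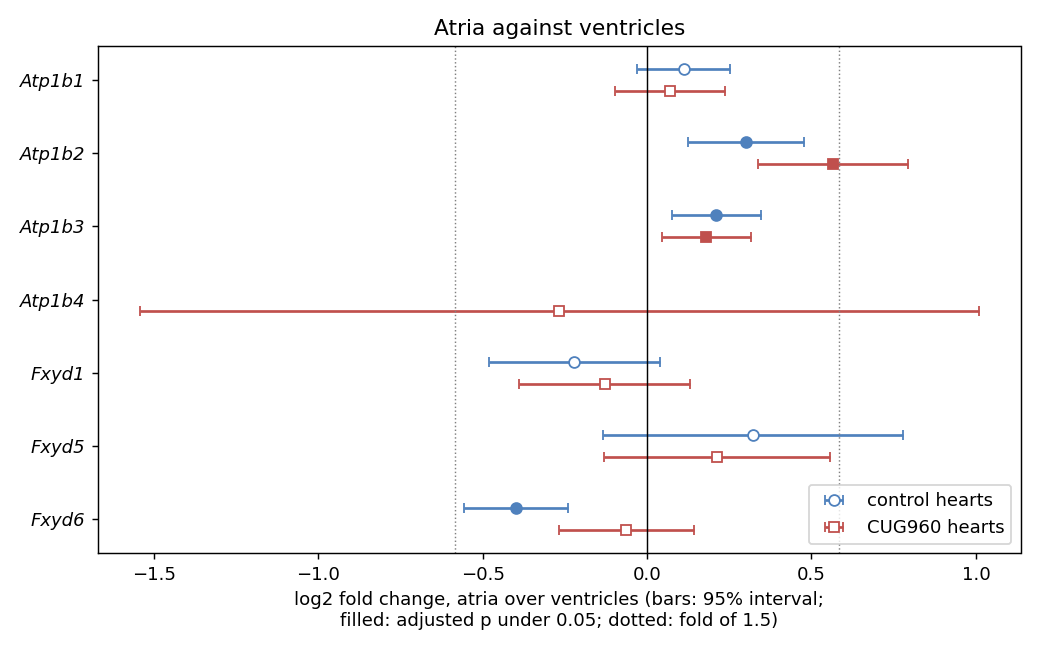
Log2 fold change of atria over ventricles for each gene in control (circles) and CUG960 hearts (squares), scaled by TMM, with 95% intervals; filled symbols have an adjusted P under 0.05 and dotted lines mark a fold of 1.5. Atp1b2 and Atp1b3 lie above 0 in both genotypes, and Fxyd6 lies at −0.40 in control and at −0.06 in CUG960 hearts. With total counts Fxyd6 is at 0.06 and 0.33, a scaling that moves the median of all genes from 0.03 to 0.49 and from 0.0090 to 0.40.

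Whether a genotype difference varied with chamber was tested as an interaction over all 12 libraries. By edgeR 0 of 7 members passed, where 1.38% of all 18327 genes did, 2 had an unadjusted P under 0.05 (12.3% of all genes), and DESeq2 gave 0 as well (3.6%). In this edgeR fit the difference in ventricles minus that in atria was −0.34 ± 0.11 for Fxyd6 (adjusted P = 0.21), 2.83 ± 1.13 for Atp1b4 (adjusted P = 0.32) and −0.27 ± 0.13 for Atp1b2 (adjusted P = 0.42). Thus the rise of Fxyd6 in atria and that of Atp1b4 in ventricles were not shown to be particular to a chamber.

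The 6 members with a mean of at least 1 CPM, all but Atp1b4, did not follow a common pattern over the 12 libraries. Between them the highest Pearson r of log2 CPM was 0.79, for Atp1b1 with Atp1b2, and the lowest −0.63, for Atp1b2 with Fxyd1. These libraries share mice, chambers and genotypes, so r describes them only. Among 13111 genes, those most like Atp1b1 were Ska2 (r = 0.97), Gm26672 and Fam188a, and those most like Atp1b2 were Tdrd3 (0.97), Gramd4 and Fmr1. Atp1b3 was most like Pja1 (0.98), Tnni1 and Sv2a. For Fxyd1 they were Clk3 (0.95), Rpl28 and Tonsl, for Fxyd5 Rela (0.89), Tpra1 and Nppb, and for Fxyd6 Wfdc1 (0.97), Nck2 and Usp2.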

How the data were processed

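Poly(A)-selected, stranded libraries were sequenced by the authors as paired-end reads, aligned to mm10 (GRCm38) and quantified per gene with RSEM 1.3.1. The deposited values are expected counts, stored as whole numbers (0 of them are not) and not scaled for depth. Reads with several matching loci are shared out by RSEM, which leaves the counts of genes with close copies uncertain. No adjusted values of the authors were used. The members and the gene lists were chosen with earlier results of these data known.

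Genes were kept by filterByExpr, scaled by TMM and compared by the quasi-likelihood test of edgeR 4.0.16 in R 4.3.3, with Benjamini-Hochberg adjustment over all genes tested. Levels are CPM with TMM factors of all 12 libraries. Depth was 116127966 to 160676189 counts, so that 1 CPM stood for 105 to 174 counts. The parts of depth and of the spread of the mice in the precision were not compared. The 3 mice of a group are separate animals. Gene lengths came from GENCODE M21, a later annotation than the one counted on, copies were found with BLAST 2.17.0, and shares were tested with scipy 1.17.1.

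Named genes are the 7 members, list genes called between genotypes, the most abundant gene of each marker list by chamber or over all libraries, and the 3 genes most correlated with each member of at least 1 CPM. Other partner genes, Myl7, Sln and the skeletal muscle genes at low counts were named after their values were seen. Some genes that this rule chose are left out. Alternatives were DESeq2 1.42.0, RLE and upper quartile scaling, other filters and fold limits, all 12 libraries in a single fit, a block for the mouse, and fits with each mouse removed. Scaling by total counts, with or without mitochondrial genes, was added after seeing the data. The steps were tested on simulated counts. Atria and ventricles share mice, so the block pairs them by animal. After group means were removed, libraries of a mouse correlated at r between 0.0522 and 0.303.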

Additional observations from a re-analysis of the deposited data

How the results depend on the processing

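In atria the count of members called between genotypes, 1 (Fxyd6), became 2 (with Atp1b2) without the fold limit and with total counts, with or without mitochondrial genes, and 0 at a log2 limit of 1.5. It ranged from 0 to 2 with each mouse left out: 0 without V119 or V334, and 2 without V120 or V333. In ventricles the 1 call (Atp1b4) became 0 with at least 10 counts required in every library, since the gene was then not tested. It was 1 with each mouse left out, but there too only the CUG960 libraries brought the gene over the filter, so these fits give no support of their own. Between chambers in control hearts the count of 0 became 1 (Atp1b4) without the filter and with all 12 libraries in a single fit, 3 without the fold limit, 3 with total counts and 2 without mitochondrial genes, and ranged from 0 to 1 with a mouse left out (Atp1b4 without V334). Without V334 only the atrial libraries (17 and 35 counts, against 3 and 2 in ventricles) brought Atp1b4 over the filter, so that call gives no support of its own. In CUG960 hearts the 0 became 1 (Atp1b2) with upper quartile scaling, with the stricter filter and with total counts without mitochondrial genes, and 2 without the fold limit and with total counts. It ranged from 0 to 1 (Atp1b2, without V119 or V120). The cause of these changes was not tested.

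Some values that had not passed the test, and Fxyd6 between chambers of control hearts, changed sign. For Atp1b3 between genotypes in atria the log2 difference ranged from −0.010 to 0.021 with a mouse left out, and for Fxyd1 from −0.086 to 0.041. Fxyd1 in atria was 0.011 with total counts and 0.0024 without mitochondrial genes. Between chambers, total counts gave Fxyd1 0.24 in control and 0.26 in CUG960 hearts (0.097 and 0.17 without mitochondrial genes), Fxyd6 0.057 in control and 0.33 in CUG960 hearts (0.24 in the latter without mitochondrial genes) and Atp1b4 0.12 in CUG960 hearts (0.033). Total counts move all genes alike, so these changes of sign are not particular to the members. The median of all genes between chambers was then 0.49 in control and 0.40 in CUG960 hearts (0.35 and 0.31 without mitochondrial genes). Fxyd6 in CUG960 hearts ranged from −0.16 to 0.014 with a mouse left out. The interaction ranged from −0.015 to 0.089 for Atp1b1 and from −0.20 to 0.033 for Fxyd1.

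With the mouse as a block, the count of members called was 0 in both chamber comparisons and in the interaction, as without it. Shares in β transcripts kept their direction with the longest transcript in place of merged exons and with each mouse left out. Low counts limit Atp1b4 in every group.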
